A study of Rattus norvegicus with 15 samples.

Results

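Glucose uptake and glycolysis were followed through 6 genes in Rat1a cells, an established rat fibroblast line, that carried an empty vector or a form of mouse MYC. The genes were Slc2a1 (ENSRNOG00000007284), Hk2 (ENSRNOG00000006116), Gapdh (ENSRNOG00000018630), Eno1 (ENSRNOG00000017895), Pkm (ENSRNOG00000011329) and Ldha (ENSRNOG00000013009). They were picked as a pathway and found by these identifiers, with no threshold on their values, although earlier results of these data were known. The names come with the identifiers, since the count tables carry identifiers alone. All 6 were among the 32545 genes of the tables and among the 13676 that passed the filter on low counts.

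Messenger RNA was sequenced from 5 stable lines with 3 replicates each, 15 libraries in all. The EV line carried the empty vector, the WT line mouse MYC of wild-type sequence, and the R149, R158 and R323 lines MYC with the substitution K149R, K158R or K323R, lysine replaced by arginine. All lines were grown attached in high-glucose medium with serum. Each construct was represented by 1 stable line, and the labels do not say whether a line was a clone or a pool. The line and its construct therefore cannot be told apart, and p-values measure the spread between cultures of a line. The labels call the cells primary fibroblasts, whereas Rat1a is an established line. Fibroblast markers and the introduced Myc were not analysed here, since the count tables give no gene names.

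The transcription factor MYC pairs with MAX on DNA and prefers the E-box CACGTG. Among the genes it is known for are those of glucose metabolism, and Ldha was one of the earliest MYC-responsive genes to be described. In glycolysis, glucose enters through a transporter, is trapped by phosphorylation and is split and oxidized to pyruvate, which lactate dehydrogenase reduces to lactate while restoring the NAD+ that the pathway uses. Lysines of MYC can be acetylated, and arginine keeps the positive charge of lysine but cannot be acetylated.

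The promoters are shown first, because the members differed in whether they held the word that MYC and MAX prefer. RefSeq promoters of build GRCr8, each from 250 bases before to 50 bases after a transcription start, were matched by symbol for 6 of the 6 genes, with 7 entries since Eno1 has a pair of starts. Both strands were searched for CACGTG, for the shorter word ACGTG that lies within it, and for the general E-box CANNTG that also includes it. Ldha alone of the 6 held CACGTG, beginning 87 bases before its start. This word is in 6.42% of all 33469 promoters in the table. ACGTG is in 19.3% of them, and the Slc2a1, Gapdh, Ldha and second Eno1 promoters hold it. CANNTG is in 72.1%, and the Hk2, Ldha and first Eno1 promoters hold it, while the Pkm promoter holds none of the 3 words. The stretches below are the 250 bases before the start for the genes with ACGTG there, with CACGTG and ACGTG (or its reverse complement CACGT) in capitals. They lie at chr1:106507842-106508091 on the plus strand for Ldha, chr5:138002272-138002521 on the plus strand for Slc2a1 and chr4:159652468-159652717 on the minus strand for Gapdh.
Ldha: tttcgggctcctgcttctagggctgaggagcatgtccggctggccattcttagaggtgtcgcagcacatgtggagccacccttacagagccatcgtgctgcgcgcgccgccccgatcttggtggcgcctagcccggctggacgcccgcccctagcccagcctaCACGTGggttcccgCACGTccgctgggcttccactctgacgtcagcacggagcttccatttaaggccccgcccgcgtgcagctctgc
Slc2a1: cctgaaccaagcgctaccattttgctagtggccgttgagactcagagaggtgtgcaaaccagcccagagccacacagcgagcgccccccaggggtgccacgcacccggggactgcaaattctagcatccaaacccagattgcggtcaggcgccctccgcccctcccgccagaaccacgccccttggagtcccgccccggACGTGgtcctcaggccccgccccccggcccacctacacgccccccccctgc
Gapdh: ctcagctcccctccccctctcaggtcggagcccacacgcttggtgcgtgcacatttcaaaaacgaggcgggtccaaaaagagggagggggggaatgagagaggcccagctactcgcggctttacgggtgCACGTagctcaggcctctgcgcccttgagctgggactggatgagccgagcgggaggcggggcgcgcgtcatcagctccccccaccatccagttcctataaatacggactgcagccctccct
A match describes these letters and is not evidence of binding. Bases outside the promoter window were not searched, so a word missing from it may still lie elsewhere at the gene. The count tables were made on another build, and the start used by these cells was not analysed here.

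Libraries held between 13303631 counts (R158 replicate 1) and 108933235 counts (R149 replicate 3). R149 replicate 1, with 36989944 counts, had the fewest genes detected of the 15 libraries, 13955. The 6 genes together held between 0.679% and 0.929% of the counts of a library. The fewest counts behind any member's value were 1559, for Hk2 in an R158 library, so counting error was at most 2.53% of a value and the spread between cultures set the precision. The biological coefficient of variation, the spread between cultures beyond counting noise, was 9.78% for Slc2a1, 15% for Hk2, 10.8% for Gapdh, 10.2% for Eno1, 12.6% for Pkm and 10.8% for Ldha. The median over all tested genes was 14.4%, so 5 of the 6 genes varied less than that median and Hk2 slightly more. Levels are CPM (read counts relative to library size) scaled by trimmed mean of M values (TMM) factors. They depend on transcript length and are compared between lines, not between genes.

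The transporter Slc2a1 (GLUT1), which brings glucose through the cell membrane, was highest in the R149 line. Its level was 147, 151 and 171 CPM in the 3 EV libraries and 178, 154 and 172 CPM in the WT libraries. The R149 libraries held 208, 198 and 200.1 CPM. The R158 libraries held 139, 150.4 and 173 CPM, and the R323 libraries 157, 178 and 177 CPM. Every R149 library lay above all 12 libraries of the other lines, while the other 4 lines overlapped each other. How many of all genes were separated in this way was not counted here. For single comparisons, the share with R149 separate and higher was 26.4% against EV, 7.58% against WT, 5.35% against R158 and 9.94% against R323. By mean level the order was R158, EV, WT, R323 and R149, and R323 to R149 was the one step between neighbours whose ranges did not overlap. Against EV, Slc2a1 rose 1.29-fold in R149 (95% interval 1.11 to 1.50), or 0.37 ± 0.10 (SE) on the log2 scale (adjusted p 0.0103, edgeR quasi-likelihood test). The changes of 1.08-fold in WT (0.924 to 1.25), 0.985-fold in R158 (0.847 to 1.15) and 1.09-fold in R323 (0.939 to 1.27) did not pass, with adjusted p from 0.381 to 0.901. The R149 call held in 23 of 24 alternatives, with adjusted p from 0.00307 to 0.315. It was lost with Gapdh as the only scaling, where the log2 fold change was 0.18.

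Hk2, the hexokinase that phosphorylates glucose and so traps it in the cell, had the widest spread of the 6 genes. It stood at 90.3, 117 and 129 CPM in EV and at 156, 135 and 164 CPM in WT. The R149 libraries held 153, 154 and 132 CPM, the R158 libraries 122, 88.9 and 137 CPM, and the R323 libraries 117, 159 and 160 CPM. All WT and all R149 libraries lay above the highest EV library, whereas R158 covered the EV range and R323 overlapped it. By mean level the order was EV, R158, R323, R149 and WT, and no neighbours in it were separated. The log2 fold change against EV was 0.44 ± 0.17 in WT (1.35-fold, 95% interval 1.05 to 1.74), 0.38 ± 0.17 for R149, 0.05 ± 0.17 for R158 and 0.37 ± 0.17 for R323. No comparison passed with edgeR, where the adjusted p was 0.0707, 0.0864, 0.852 and 0.111. The first and second of these passed when R158 replicate 2 was left out (adjusted p 0.0387 and 0.049), and R323 passed without R323 replicate 1 (0.043). Over all alternatives the adjusted p for these 3 lines lay between 0.0387 and 0.254, 0.0485 and 0.368, and 0.043 and 0.349.

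Gapdh, the enzyme that oxidizes glyceraldehyde 3-phosphate, is often used as a reference for other RNAs. It stood at 1672, 1743 and 2077 CPM in EV and at 1868, 1653 and 2007 CPM in WT. The R149 libraries held 1888, 2194 and 2227 CPM, the R158 libraries 1859, 1723 and 2063 CPM, and the R323 libraries 1908, 2152 and 2065 CPM. All 5 lines overlapped, and 3 of the 12 MYC libraries lay above the highest EV library. Against EV the log2 fold change was 0.01 ± 0.11 (WT), 0.20 ± 0.11 (R149), 0.04 ± 0.11 (R158) and 0.16 ± 0.11 (R323), with edgeR adjusted p from 0.182 to 0.963. The sign in WT and in R158 turned with other scalings, to -0.013 and -0.015 with library size alone. The 95% intervals reached 1.36-fold in R149 and 1.32-fold in R323.

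Eno1, the enolase that makes phosphoenolpyruvate, stood at 1684, 1775 and 2056 CPM in EV and at 2093, 2026 and 2458 CPM in WT. The R149 libraries held 2184, 2318 and 2271 CPM, the R158 libraries 2034, 1763 and 2169 CPM, and the R323 libraries 2094, 2141 and 2106 CPM. All R149 and all R323 libraries lay above the EV range, while WT and R158 overlapped it. By mean level the order was EV, R158, R323, WT and R149, and all neighbours overlapped. Eno1 rose 1.23-fold in R149 (95% interval 1.05 to 1.44), or 0.30 ± 0.11 on the log2 scale (edgeR adjusted p 0.0396). The log2 fold change was 0.25 ± 0.11 in WT, 0.11 ± 0.11 in R158 and 0.20 ± 0.11 in R323, and these did not pass (adjusted p 0.0932, 0.454 and 0.173). The R149 call was close to the threshold and held in 10 of 24 alternatives, with adjusted p from 0.0142 to 0.54. It was lost without EV replicate 1 (adjusted p 0.156), EV replicate 2 (0.12), WT replicate 1 (0.0501), R149 replicate 1, 2 or 3 (0.0682, 0.113 and 0.0827), R158 replicate 1 (0.0512) and R323 replicate 1, 2 or 3 (0.0502, 0.0528 and 0.0526).

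Pkm, the pyruvate kinase of the last step to pyruvate, gave no called change. It stood at 1619, 1708 and 2005 CPM in EV and at 1667, 1764 and 2117 CPM in WT. The R149 libraries held 1711, 2237 and 2123 CPM, the R158 libraries 1626, 1522 and 1964 CPM, and the R323 libraries 1681, 1959 and 1993 CPM. All 5 lines overlapped, in the order R158, EV, WT, R323 and R149 by mean level. Relative to EV its log2 fold change was 0.06 ± 0.14 (WT), 0.19 ± 0.14 (R149), -0.06 ± 0.14 (R158) and 0.08 ± 0.14 (R323), with edgeR adjusted p from 0.296 to 0.791. The counts are per gene, so the M1 and M2 splice forms of Pkm, a choice that MYC is known to influence, were not analysed here.

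Ldha, the lactate dehydrogenase subunit at the end of the pathway, was higher in all 12 MYC libraries than in any EV library. It stood at 1358, 1394 and 1456 CPM in EV and at 1631, 1718 and 1869 CPM in WT. The R149 libraries held 1802, 2172 and 2293 CPM, the R158 libraries 1569, 1775 and 1952 CPM, and the R323 libraries 1596, 1918 and 1904 CPM. The mean was 1403 ± 49.4 CPM in EV, 1739 ± 120 in WT, 1765 ± 192 in R158, 1806 ± 182 in R323 and 2089 ± 256 in R149 (SD, n = 3). EV to WT was the one step between neighbours in this order with separate ranges. The share of all genes with all 12 MYC libraries above the EV range was not computed here. For single lines, the share with all 3 libraries above that range was 21.4% (WT), 26.4% (R149), 21.6% (R158) and 24.2% (R323). Ldha rose 1.49-fold in R149 (95% interval 1.26 to 1.77), or 0.57 ± 0.12 on the log2 scale (edgeR adjusted p 0.00132). It rose 1.26-fold in R158 (1.06 to 1.49), with an adjusted p of 0.0427, and 1.29-fold in R323 (1.09 to 1.53), with an adjusted p of 0.0263. The WT line had a similar value, 1.24-fold (1.05 to 1.47), a log2 fold change of 0.31 ± 0.12, but missed the threshold with an adjusted p of 0.0584.

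The R149 call for Ldha held in 24 of 24 alternatives, with adjusted p from 2.5e-05 to 0.0355. The other 3 lay near the threshold. In WT, Ldha passed with DESeq2 (adjusted p 0.0428), with the 2 lines alone in the fit (0.0313) and without R149, R158 or R323 replicate 1 (0.0397, 0.0495 and 0.045). In all, 7 of 24 alternatives called it, with adjusted p from 0.00817 to 0.161. In R158, 9 of 24 alternatives called it, with adjusted p from 0.00583 to 0.159. The R158 call was lost without EV replicate 1, 2 or 3 (0.112, 0.107 and 0.0925), WT replicate 2 or 3 (0.0644 and 0.0514), R149 replicate 2 (0.0603), R158 replicate 2 or 3 (0.0795 and 0.159) and R323 replicate 2 or 3 (0.0608 and 0.0615). In R323, 17 of 24 called it, with adjusted p from 0.00268 to 0.289. The R323 call was lost without EV replicate 1, 2 or 3 (0.0709, 0.0766 and 0.052) and R323 replicate 2 or 3 (0.0883 and 0.0849).

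**Figure D1:**
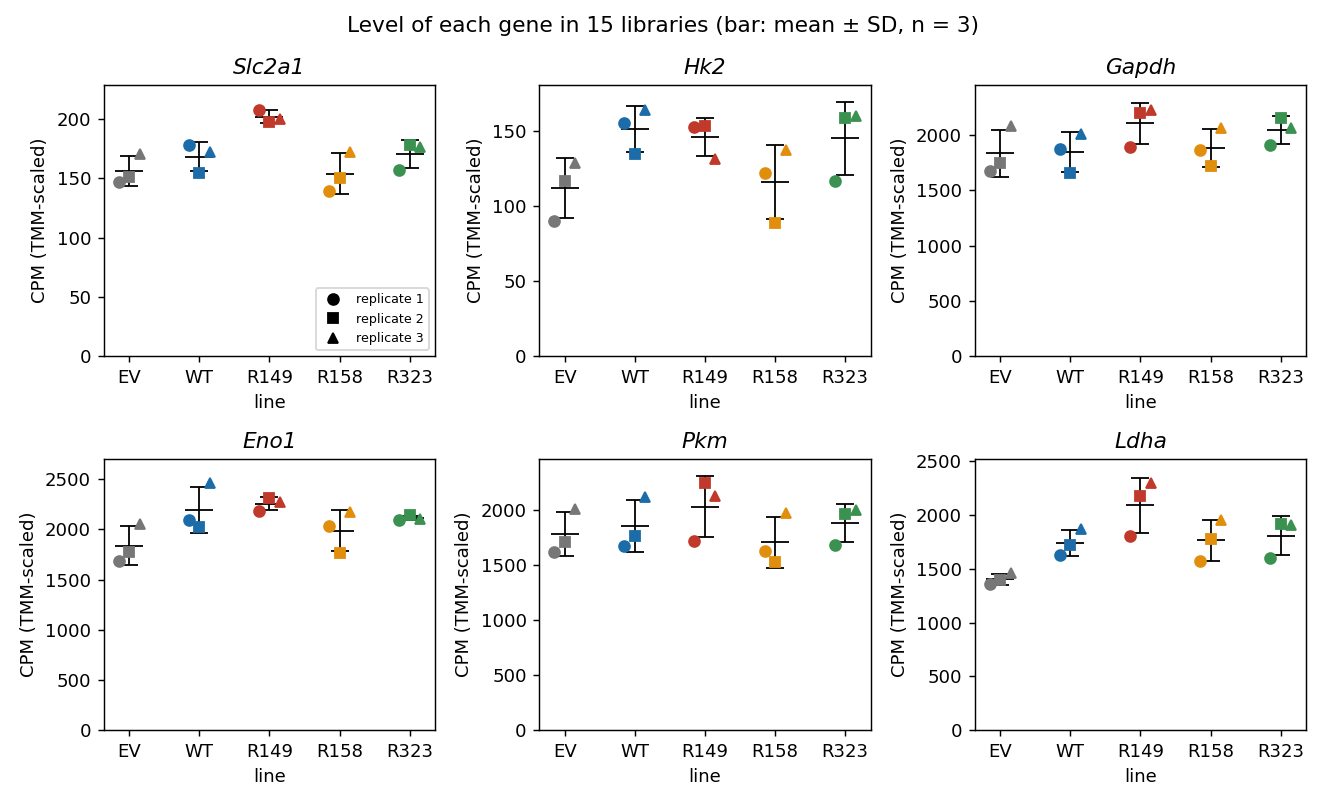
TMM-scaled CPM (y axis, from 0) of each gene in the 15 libraries by line (x axis), with symbols for the replicate number and bars for the mean ± SD (n = 3). Ldha lies above the EV range in all 12 MYC libraries, and the 3 R149 libraries have the highest Slc2a1. The share of all genes with either pattern was not computed.

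The calls against EV were set beside those over all genes. In WT, 0 of the 6 genes were called by edgeR, where 26.8% of all tested genes were, and 12.6% of all genes were called higher. At an unadjusted p under 0.05 there were 3 of 6 (Hk2, Eno1 and Ldha) and 38.2% of all genes. DESeq2 called 1 (Ldha), with 29.6% of all genes, and limma-voom 0, with 27.8%. With the replicate number as a block, edgeR called 3 (Hk2, Eno1 and Ldha), with 36.4% of all genes. In R149, 3 of 6 were called, all higher (Slc2a1, Eno1 and Ldha), where 38.5% of all genes were called and 18.2% called higher. In R158 and in R323, 1 of 6 was called, Ldha, against 28.5% and 29.8% of all genes, and 14.4% and 14.1% called higher. No member was called lower in any of the 4 comparisons. These comparisons share the EV libraries and so are not independent of each other.

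The log2 fold change was above 0 for 6 of 6 genes in WT, R149 and R323 and for 4 of 6 in R158. Over all genes it was above 0 for 50.8% (WT), 50.3% (R149), 51.1% (R158) and 50.2% (R323). In WT the 6 include Gapdh (0.0092) and Pkm (0.06), whose signs turned in some alternatives. Gapdh, Pkm and Eno1 varied alike across the libraries, so the signs are not independent of each other. The median over the 6 was 0.18 (WT), 0.33 (R149), 0.04 (R158) and 0.18 (R323), while the median over all tested genes was 0.0092, 0.0026, 0.012 and 0.0020. Separate library ranges were found for 2 of 6 genes in WT (Hk2 and Ldha), 4 in R149 (Slc2a1, Hk2, Eno1 and Ldha), 1 in R158 (Ldha) and 2 in R323 (Eno1 and Ldha), all higher than EV. The share of all tested genes with ranges separate in that direction was 21.4% (WT), 26.4% (R149), 21.6% (R158) and 24.2% (R323). The count of members was near this background in WT and R323, and near or below it in R158.

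**Figure D2:**
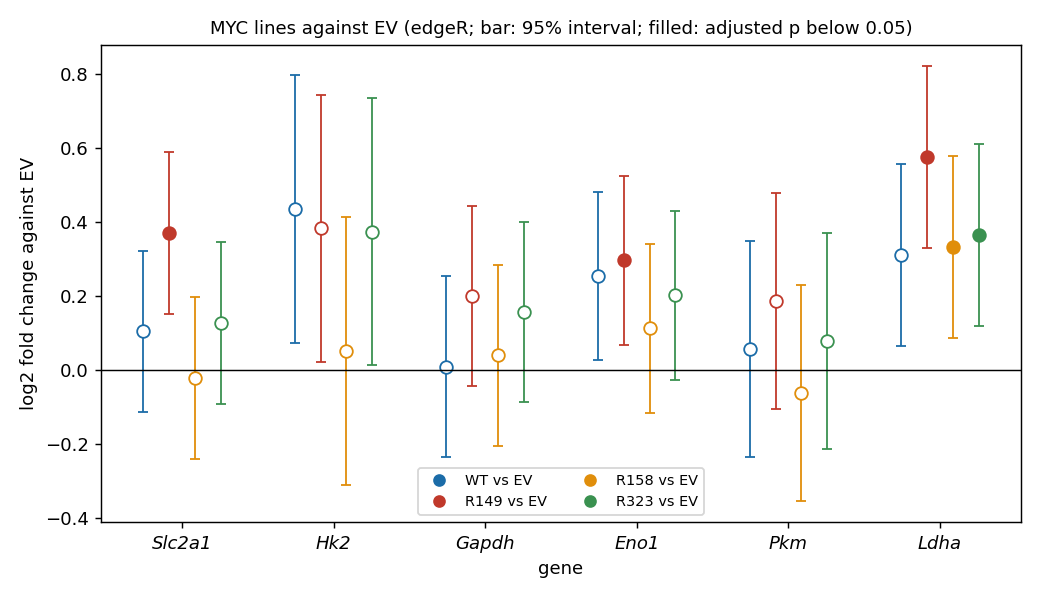
The log2 fold change against EV (y axis) of each gene (x axis) in the 4 MYC lines (colours), with 95% intervals from the edgeR fit and filled points for adjusted p below 0.05. Filled points are Ldha in R149, R158 and R323 and Slc2a1 and Eno1 in R149.

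Ratios to Gapdh within a library need no scaling between libraries, but every ratio then carries the level of Gapdh as well. This measure was chosen after the values were seen. For Ldha the ratio was 0.812, 0.800 and 0.701 counts per Gapdh count in EV and 0.874, 1.04 and 0.931 in WT. It was 0.955, 0.990 and 1.03 in R149, 0.844, 1.03 and 0.946 in R158, and 0.837, 0.891 and 0.922 in R323. All 12 MYC libraries again lay above the 3 EV libraries, and the share of all genes for which this holds was not computed here. For Eno1 the ratio was 1.01, 1.02 and 0.990 in EV and 1.12, 1.23 and 1.22 in WT, and 11 of the 12 MYC libraries lay above the EV range. For Hk2 the 3 WT libraries were nearly equal, at 0.0833, 0.0815 and 0.0819, above 0.0540, 0.0672 and 0.0620 in EV.

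By this ratio, 3 of 5 genes were separate from EV and higher in WT (Hk2, Eno1 and Ldha), where 12.7% of all genes were. In R149 they were 3 of 5 (Slc2a1, Eno1 and Ldha, background 9.76%), in R158 2 of 5 (Eno1 and Ldha, 11.1%) and in R323 1 of 5 (Ldha, 11%). Pkm was separate and lower in R158, at 0.875, 0.883 and 0.952 against 0.969, 0.980 and 0.965 in EV, as were 23.3% of all genes. The groups of 3 allow no exact permutation p below 0.1, so these separations carry no test. When Gapdh was the only scaling in the edgeR fit, the median of all genes shifted against EV by -0.21 in R149 and by -0.17 in R323 on the log2 scale. Ldha in R149 remained called in that fit, at 0.36 on the log2 scale (adjusted p 0.0355), and no other member was called in any comparison with EV.

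**Figure D3:**
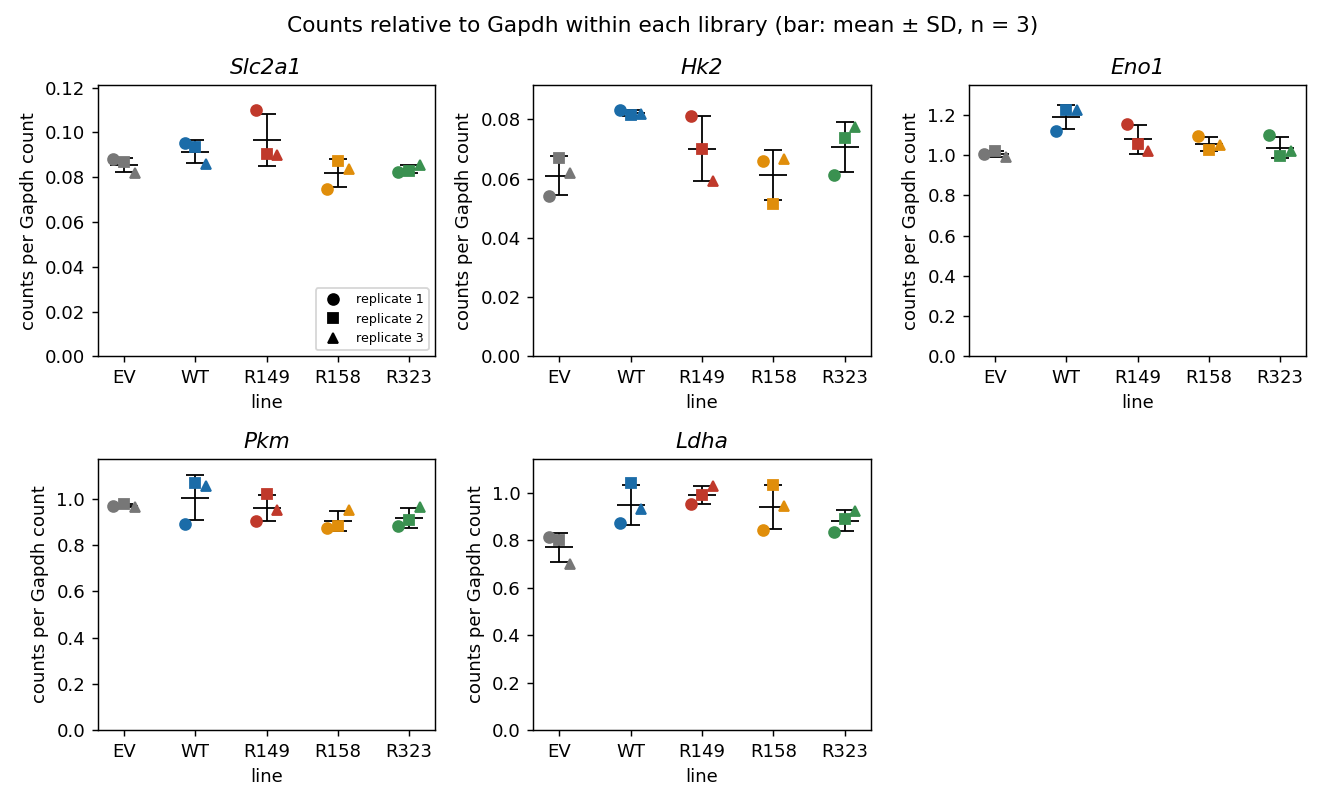
Counts of 5 genes divided by the Gapdh count of the same library (y axis, from 0) by line (x axis), with symbols for the replicate number and bars for the mean ± SD (n = 3). The Ldha ratio is between 0.837 and 1.04 in the MYC lines and between 0.701 and 0.812 in EV.

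The mutants were next compared with WT, in which the lysines are kept. None of the 6 genes was called by edgeR in R149, R158 or R323 against WT, where 1.18%, 0.6% and 0.892% of all genes were called, and DESeq2 and limma-voom called 0 as well. At an unadjusted p under 0.05 there were 2 genes in R149 (Slc2a1 and Ldha), 1 in R158 (Hk2) and 0 in R323, beside 11.4%, 11% and 8.19% of all genes. Slc2a1 was 1.20-fold higher in R149 than in WT (95% interval 1.03 to 1.40, adjusted p 0.305), and the 3 R149 libraries lay above the WT range. This was the 1 of 6 genes with separate ranges in that comparison, against 7.58% of all genes separate and higher. Ldha was 1.20-fold higher in R149 than in WT (1.01 to 1.42, adjusted p 0.386), with overlapping libraries. Hk2 was 0.766-fold in R158 relative to WT (0.596 to 0.984, adjusted p 0.418), and 1 R158 library, at 137 CPM, lay within the WT range.

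Each 95% interval is for a single difference between lines, with no joint coverage over the 18 differences. The intervals reflect the spread between cultures, so they do not bound an effect of the substitution apart from the line. For Ldha the fold relative to WT was 1.01 in R158 (95% interval 0.856 to 1.20) and 1.04 in R323 (0.876 to 1.23). For Eno1 it was 1.03 in R149 (0.879 to 1.21), 0.907 in R158 (0.774 to 1.06) and 0.964 in R323 (0.823 to 1.13). Hk2 had the widest intervals, from 0.752 to 1.24 in R149 and from 0.747 to 1.23 in R323. The highest upper bound among the 18 differences from WT was 1.42-fold, for Ldha in R149, and the lowest lower bound was 0.596-fold, for Hk2 in R158. By the ratio to Gapdh, R323 was separate from WT and lower for 3 of 5 genes (Slc2a1, Hk2 and Eno1, background 11.9%), R158 for 2 of 5 (Hk2 and Eno1, 6.9%) and R149 for 1 of 5 (Hk2, 19%). Gapdh itself was 1.11-fold, 1.02-fold and 1.14-fold relative to WT in R323, R158 and R149. With Gapdh as the only scaling, the median of all genes shifted against WT by -0.16, -0.016 and -0.19 on the log2 scale in these lines. With TMM, the log2 differences of the 3 genes in R323 were 0.02, -0.06 and -0.05.

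**Figure D4:**
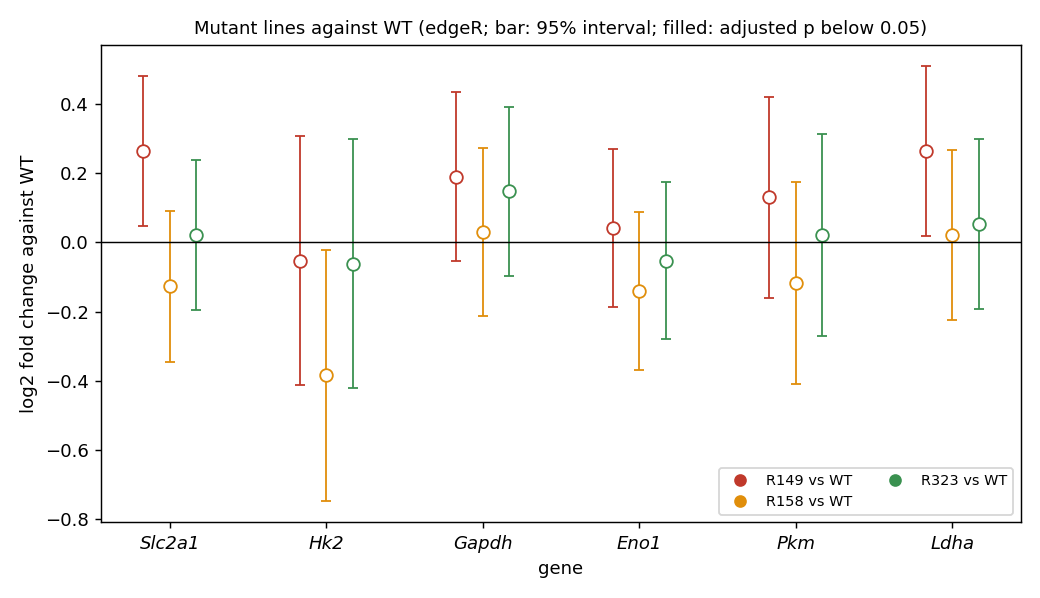
The log2 fold change against WT (y axis) of each gene (x axis) in the 3 mutant lines (colours), with 95% intervals from the edgeR fit. No point is filled, which marks that no adjusted p was below 0.05, and the interval excludes 0 for Slc2a1 and Ldha in R149 and for Hk2 in R158.

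Among the mutants, Slc2a1 gave the lowest adjusted p. It was 1.31-fold higher in R149 than in R158 (95% interval 1.13 to 1.53), or 0.39 ± 0.10 on the log2 scale (edgeR adjusted p 0.0925). So 0 of 6 genes were called by edgeR, where 1.27% of all genes were, 1 had an unadjusted p under 0.05 beside 9.52% of all genes, and limma-voom called 0. With the replicate number as a block, a pairing that holds among the MYC lines, it was called, at 0.40 on the log2 scale (adjusted p 0.0286), and 2.79% of all genes were. DESeq2 called it too (adjusted p 0.0118), with 2.44% of all genes, and the range over 24 alternatives was 0.0118 to 0.434. Slc2a1 was 1.18-fold higher in R149 than in R323 (1.02 to 1.38, adjusted p 0.393), and Ldha 1.18-fold higher in R149 than in R158 (0.998 to 1.40, adjusted p 0.532). Against R323, in R149 and in R158, 0 genes of the 6 were called by edgeR, DESeq2 or limma-voom, where 1.07% and 0.936% of all genes were called. At an unadjusted p under 0.05 there were 1 (Slc2a1) and 0 genes, beside 11.4% and 16.5% of all genes. Log2 differences of R158 from R323 ran from -0.32 to -0.03 over the 6 genes, and 51.3% of all genes were positive in that comparison. Those of R149 were above 0 for 6 of 6 genes against R158 and against R323, beside 46.8% and 48.3% of all genes. Some members varied alike, so these signs are not independent of each other. In R158 against R323, Eno1 and Ldha turned sign with Gapdh as the only scaling (0.026 and 0.090).

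Part of the spread within a line went with the replicate number. Pkm was higher in the library numbered 3 than in the library numbered 1 in 5 of 5 lines, by 1.19-fold to 1.27-fold. The library numbered 1 had the lowest Ldha in 5 of 5 lines, and number 3 exceeded it by 1.07-fold to 1.27-fold. Gapdh and Eno1 were also higher in number 3 than in number 1 in 5 of 5 lines, by 1.07-fold to 1.24-fold and 1.01-fold to 1.22-fold. Hk2 was higher in 4 of 5 lines and Slc2a1 in 3 of 5. The share of all genes higher in number 3 in 5 of 5 lines was not computed here. Over all tested genes, 12 of 15 libraries correlated best with their own number, so the pattern is not shown to be particular to these members. No label ties a replicate number to a day or batch, and what it stands for was not tested.

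**Figure D5:**
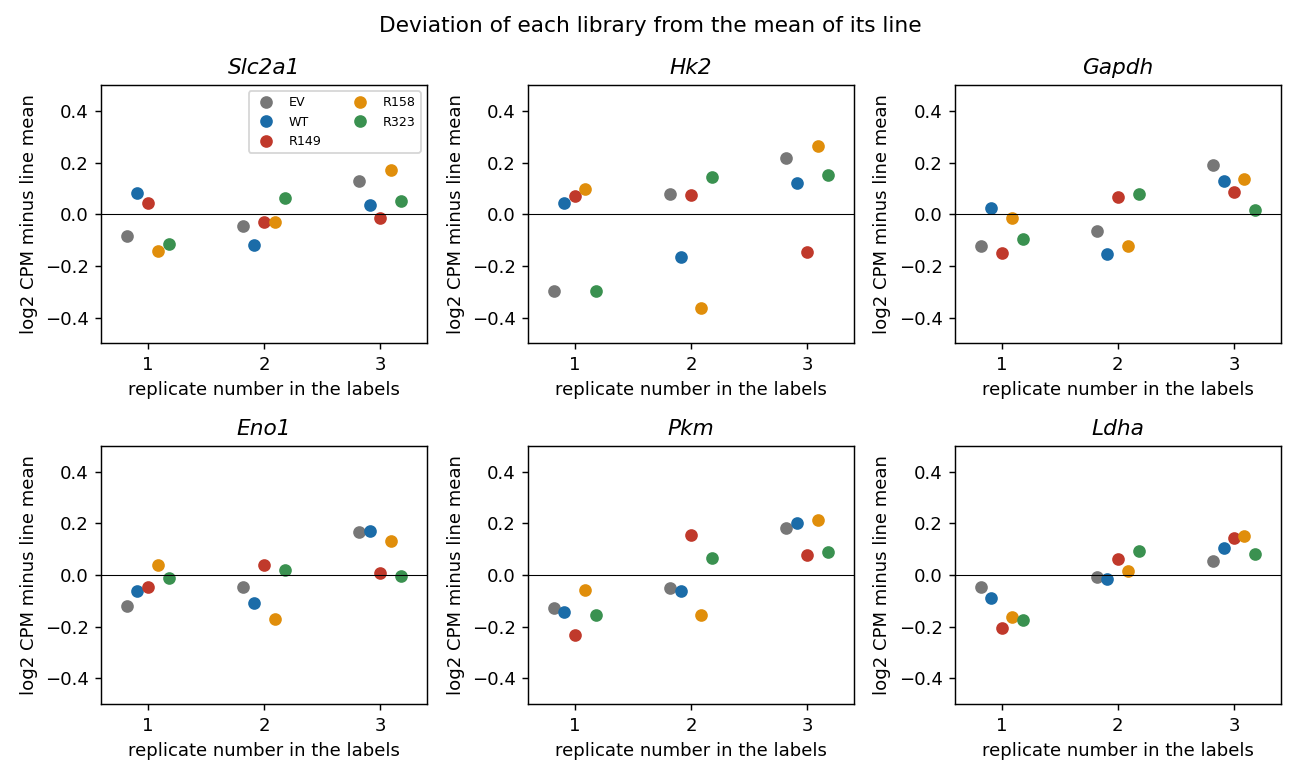
The log2 CPM of each library minus the mean of its line (y axis) by the replicate number of the labels (x axis), coloured by line. For Ldha all 5 libraries numbered 1 lie below their line's mean and all 5 numbered 3 above it.

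Likeness between genes was measured as the root-mean-square difference of log2 CPM, each gene centred on its mean over the 15 libraries. Gapdh and Pkm were the most alike pair of members, at 0.089, which placed Pkm at position 21 among 13675 genes by likeness to Gapdh and Gapdh at position 9 by likeness to Pkm. Gapdh and Eno1 differed by 0.099 and Eno1 and Pkm by 0.11. Hk2 and Ldha were the least alike, at 0.24, and Hk2 differed from every other member by at least 0.17. The gene most like Ldha was ENSRNOG00000009373, at 0.042, with 326 ± 15.8 CPM (SD, n = 3) in EV and 414 ± 22.4 in WT, and with R149 at 506 ± 46.0, R158 at 412 ± 33.3 and R323 at 418 ± 38.0. The gene most like Hk2 was ENSRNOG00000009271, at 0.11, with 239.9 ± 40.5 CPM in EV and 286 ± 31.3 in WT, and with R149 at 279 ± 21.2, R158 at 235 ± 45.8 and R323 at 302 ± 39.1.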

How the data were processed

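Raw counts per Ensembl gene were deposited, 1 table per library, with no normalization. Alignment used TopHat2 2.1.0 on build Rnor_6.0, per the submitters' processing notes; the counting tool, strand setting and annotation were not given in the sources used here. Processed copies of such genes may share reads with them, which was not tested. Members and lists were chosen by pathway, with earlier results of these data known. All 6 members were named whatever their values; lists of 46 other glucose genes and 22 cell markers were not used, because 0 Ensembl identifiers were in the name table.

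All genes entered 1 edgeR 4.0.16 quasi-likelihood fit in R 4.3.3 (filterByExpr, minimum count 10, TMM, line as the only term, 15 libraries), with Benjamini-Hochberg adjustment over 13676 genes for each of 10 contrasts and calls at adjusted p below 0.05. Log2 CPM used a prior count of 2. DESeq2 1.42.0, limma 3.58.1 (voom), other scalings and filters, 2-line fits and left-out libraries were alternatives; the code was tested on simulated data. Replicates differed beyond counting noise (chi-square per degree of freedom 4.43 to 86.1). Deviations of same-numbered libraries correlated above 0.1 in every pair for 6 of 6 contrasts among MYC lines (0.127 to 0.54) and 0 of 4 against EV (0.0052 to 0.208).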

Additional observations from a re-analysis of the deposited data

How the results depend on the processing

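Calls against EV, other than Ldha and Slc2a1 in R149, lay near the threshold. In WT against EV, where 0 members were called, DESeq2 gave 1 (29.6% of all genes called), the 2 lines alone 2 (27.6%), replicates 2 and 3 alone 1 (37.3%), and left-out libraries 0 to 1. In R149 the count of 3 became 1 with Gapdh as the only scaling (31.4% of all genes called) and 2 to 4 with a library left out. Library size alone, no filter and replicates 2 and 3 alone each lost Eno1 (adjusted p 0.105, 0.0606 and 0.142). In R158 the count of 1 became 0 with relative log expression (RLE) size factors, library size alone, no filter, the 2 lines alone or Gapdh scaling, and 0 to 1 with a library left out. In R323 it became 0 with library size alone or Gapdh scaling, and 0 to 2 with a library left out. Between R149 and R158, DESeq2 called 1 member and the replicate block 1. With the replicate block, the calls against EV numbered 3 (WT), 4 (R149), 1 (R158) and 1 (R323), and the share of all genes called rose as well, to 36.4%, 48.2%, 39% and 38.9%. Between EV and the other lines, same-numbered libraries passed the 0.1 minimum in every pair for 0 of 4 contrasts. Their correlations were all above 0 (0.0052 to 0.208), and 12 of 15 libraries correlated best with their own number. Among the MYC lines the block changed no other call. The cause of these changes was not tested.

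Of the 60 log2 differences, 23 changed sign in at least 1 alternative, and 0 of those were called. With RLE, library size, DESeq2 and replicates 2 and 3 alone, Gapdh in WT against EV was -0.00015, -0.013, -0.00014 and -0.066. With library size alone, against EV in R158, Hk2 was -0.0022 and Gapdh -0.015; against WT in R158, Gapdh was -0.0025 and Ldha -0.013; in R149 against R323, Hk2 was -0.045 and Gapdh -0.0058. With replicates 2 and 3 alone, Hk2 and Gapdh in R158 against EV were -0.13 and -0.023, Hk2 in R323 against WT 0.086 and Hk2 in R149 against R323 -0.16. With Gapdh scaling, Pkm was -0.017 in R149 and -0.080 in R323 against EV, and Slc2a1 -0.035 in R323. Against WT, R149 gave -0.14 for Eno1 and -0.066 for Pkm, R158 gave -0.012 for Ldha, and R323 gave -0.13 for Slc2a1, -0.13 for Pkm and -0.10 for Ldha. Hk2 was -0.015 in R149 against R323, and Eno1 and Ldha 0.026 and 0.090 in R158 against R323. With a library left out, the ranges against EV were -0.055 to 0.11 (Gapdh) and -0.050 to 0.15 (Pkm) in WT, and in R158 -0.12 to 0.036 (Slc2a1), -0.096 to 0.21 (Hk2), -0.041 to 0.13 (Gapdh) and -0.18 to 0.023 (Pkm). Against WT they were -0.13 to 0.018 (Hk2) and -0.0091 to 0.12 (Eno1) in R149, -0.055 to 0.090 (Gapdh) and -0.067 to 0.088 (Ldha) in R158, and in R323 -0.031 to 0.082 (Slc2a1), -0.14 to 0.077 (Hk2), -0.10 to 0.040 (Eno1) and -0.046 to 0.13 (Pkm). In R149 against R323 they were -0.14 to 0.082 (Hk2) and -0.020 to 0.099 (Gapdh), and in R158 against R323 -0.13 to 0.032 (Ldha).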

Other observations

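For several members, 1 other gene followed the member closely in all libraries. The gene most like Eno1 had between 0.176 and 0.187 of its CPM in each of the 15 libraries, a spread of 1.06-fold from lowest to highest ratio. The closest genes to Gapdh, Pkm and Ldha had ratios that spread 1.09-fold, 1.09-fold and 1.14-fold. For Slc2a1 and Hk2 the spread was 1.20-fold and 1.32-fold. Whether these genes share reads with the members was not tested.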
